A study of Rattus norvegicus with 9 samples.

Results

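Antigen presentation and the interferon response were followed in rat retinal progenitor cells (RPCs) through 9 genes, which were taken by name: B2m, Tap1, Tap2, Psmb8, Psmb9, Psmb10, Irf1, Ifitm3 and Cd74. All probe sets that the platform annotation assigns to 1 of these genes alone were used, which gave 11 probe sets for 9 of the 14217 genes on the array. RNA of 9 samples had been hybridized to Affymetrix Rat Genome 230 2.0 arrays, with 3 samples each of rESC-RPC2, rESC-RPC1 and P-RPC. The rESC-RPC2 and rESC-RPC1 cells were differentiated from DA8-16, a single embryonic stem cell (rESC) line of the DA rat, as aggregates with the Wnt inhibitor IWR-1e, Matrigel and later serum, and both were harvested on day 16. The rESC-RPC2 aggregates stayed in suspension up to day 14 and were then plated in the same medium, whereas rESC-RPC1 were plated on day 10 and moved to N2 medium with serum on day 14. For P-RPC the neural retina of postnatal day 1 SD rats was dissociated with papain, and no sorting is described. The rESC line had been kept on mouse feeder cells, which were taken off before differentiation.

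A nucleated cell shows peptides of its own proteins on MHC class I molecules, which need beta-2-microglobulin, the product of B2m, as their light chain. The peptides are cut by the proteasome and pumped into the endoplasmic reticulum by the transporter that Tap1 and Tap2 encode, and under interferon the constitutive catalytic subunits of the proteasome are replaced by those of Psmb8, Psmb9 and Psmb10. Irf1 encodes a transcription factor that interferon gamma induces and that acts on these genes, Ifitm3 a membrane protein that hinders the entry of viruses, and Cd74 the invariant chain that escorts MHC class II molecules in antigen-presenting cells. The neural retina is known for low MHC expression, and its microglia are its main resident antigen-presenting cells.

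Tap2, Psmb8, Tap1 and Psmb9 lie next to each other in this order within the rat MHC (RT1) on chromosome 20, with the class II genes RT1-Bb and RT1-DOb on one side and RT1-DMb and RT1-DMa on the other. The MHC differs between rat strains, the rESC-RPCs were of the DA strain and P-RPC of the outbred SD strain. In every comparison with P-RPC, strain, cell type and the step from tissue to culture cannot be told apart, and how well each probe set fits the sequence of either strain was not tested. The comparison of rESC-RPC2 with rESC-RPC1 is free of the strain, and there the day of plating and the medium cannot be told apart.

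The sequences before the annotated starts of the genes are shown because interferon-responsive genes are known for short motifs there, and because Tap1 and Psmb9 are read away from each other from neighbouring starts. They are RefSeq sequences of the assembly GRCr8, 250 bases up to the base before the start, 5′ to 3′ on the strand of the gene. For Psmb8 a stretch of 30 bases around the start is given, since its match lies across the start. Capitals mark matches to GAAANNGAA (the core of the interferon-stimulated response element, ISRE) and TTCNNNGAA (the interferon gamma-activated site, GAS), on either strand.
B2m, chr3:129549080-129549329, + strand: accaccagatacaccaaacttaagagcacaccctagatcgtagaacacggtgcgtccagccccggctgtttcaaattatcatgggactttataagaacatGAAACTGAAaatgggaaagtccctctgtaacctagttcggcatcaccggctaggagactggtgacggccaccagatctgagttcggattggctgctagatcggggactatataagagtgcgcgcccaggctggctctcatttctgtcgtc
Tap1, chr20:4668544-4668793, - strand: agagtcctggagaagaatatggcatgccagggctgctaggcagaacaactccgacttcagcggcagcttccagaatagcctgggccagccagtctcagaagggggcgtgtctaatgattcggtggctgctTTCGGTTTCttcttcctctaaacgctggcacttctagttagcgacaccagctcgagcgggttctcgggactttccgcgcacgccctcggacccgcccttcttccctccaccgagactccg
Psmb9, chr20:4668750-4668999, + strand: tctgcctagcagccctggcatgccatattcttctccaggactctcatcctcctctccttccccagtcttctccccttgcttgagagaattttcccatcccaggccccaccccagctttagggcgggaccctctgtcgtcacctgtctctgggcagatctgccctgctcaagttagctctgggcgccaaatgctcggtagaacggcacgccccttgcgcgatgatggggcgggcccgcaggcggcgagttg
Psmb10, chr19:50743293-50743542, - strand: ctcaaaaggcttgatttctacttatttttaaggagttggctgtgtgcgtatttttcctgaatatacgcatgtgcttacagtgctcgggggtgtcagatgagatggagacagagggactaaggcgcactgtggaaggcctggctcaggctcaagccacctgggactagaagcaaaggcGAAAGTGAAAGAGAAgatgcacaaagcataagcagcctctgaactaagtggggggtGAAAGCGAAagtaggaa
Irf1, chr10:38417685-38417934, + strand: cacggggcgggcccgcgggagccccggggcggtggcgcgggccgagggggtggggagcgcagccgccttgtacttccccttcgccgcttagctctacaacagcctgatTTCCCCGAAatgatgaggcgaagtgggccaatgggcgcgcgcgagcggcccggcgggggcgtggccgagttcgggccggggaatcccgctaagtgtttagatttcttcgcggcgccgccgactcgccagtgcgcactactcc
Ifitm3, chr1:205541759-205542008, - strand: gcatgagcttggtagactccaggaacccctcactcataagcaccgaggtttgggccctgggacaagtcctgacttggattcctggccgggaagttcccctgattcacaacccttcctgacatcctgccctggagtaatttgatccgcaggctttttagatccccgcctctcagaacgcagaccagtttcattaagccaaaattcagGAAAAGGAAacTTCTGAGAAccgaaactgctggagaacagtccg
Psmb8, chr20:4657017-4657046, - strand: ggtgctgtggctTTCGCTTTCacttccttg

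In a window of 300 bases, with 50 after the start, all 9 genes had a RefSeq entry. The ISRE core was found in 6 of them, namely B2m, Tap1, Tap2, Psmb8, Psmb10 and Ifitm3, and in 9.71% of the windows of all 33469 genes in the table. GAS letters stood in 3 of them, Psmb8, Irf1 and Ifitm3, and in 8.87% of all windows. In B2m the ISRE core lay 150 to 142 bases before the start. Psmb10 held ISRE cores that began 73, 67 and 17 bases before its start, of which the first and the second overlap, the 1 pair of overlapping matches in these windows. No match was found in the windows of Psmb9 or Cd74. The annotated starts of Tap1 and Psmb9 lie 457 bases apart, so that their 250-base stretches share 44 bases. Each match describes letters in a window and not a site in use.

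Signals of the authors' MAS 5.0 processing are on a linear scale and were compared within a probe set, except for the marker and lens lists. Those were summed over probe sets, and the brightest weigh most in such sums. Vim had a mean of 24330 in rESC-RPC2 in the glia list, and Hbb 14350 in P-RPC in the red blood cell list. Rlbp1 stands in both the glia and the pigment epithelium list. A probe set counted as detected on an array at or above 123, the median of all values, and testing needed 3 or more of the 9 arrays at this level. Of the 11 probe sets 8 passed, for 7 of the 9 genes, and Psmb8, Cd74 and 1 of the 2 probe sets of Tap1 did not. Tap1 and Psmb9 passed through the rESC-RPC1 arrays alone, so that they had to differ from the other groups and are given as descriptions rather than as support. Differences are log2 fold changes from a limma fit over all 17048 tested probe sets with its standard error (SE), and a call needed an adjusted p under 0.05 together with a change of at least 2-fold. There were 3 arrays per group throughout. The 3 comparisons share arrays with each other and are not independent. In such RNA from mixed cells, fewer cells of a type and less RNA per cell cannot be told apart.

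The arrays had like medians, from 113.5 to 128.5. The retinal neuron and progenitor markers summed to signals of 9975 to 11207 in rESC-RPC2 and 11886 to 20697 in rESC-RPC1, against 79756 to 85605 in P-RPC, so that 4 and 5 of 10 were detected on all arrays of rESC-RPC2 and rESC-RPC1 and 9 in P-RPC. Microglia and macrophage markers summed to 508 to 584 in rESC-RPC2 (0 of 20 detected), 633 to 940 in rESC-RPC1 (1 of 20, Cd14) and 2927 to 3366 in P-RPC (9 of 20). Mesenchymal and smooth muscle markers summed to 10153 to 17499 in rESC-RPC2 and 21016 to 51646 in rESC-RPC1, against 1917 to 2090 in P-RPC. Astrocyte and Muller glia markers summed to 32432 to 36139 in rESC-RPC2, 47832 to 66633 in rESC-RPC1 and 30307 to 32370 in P-RPC, with 6, 8 and 6 of 10 detected. Of the 9 that passed the filter, 5 were called higher in rESC-RPC1 than P-RPC and 7 lower in rESC-RPC2 than in rESC-RPC1, with S100b, which passed through rESC-RPC1 alone, in both counts. Gfap, also in both, read 615.5, 1471 and 849.8 in rESC-RPC2, 3472, 3748 and 3847 in rESC-RPC1, and 69.9, 49.1 and 58.4 in P-RPC. Gfap had the group order of Ifitm3 and of B2m on 1367595_s_at, as Vim and Aqp4 had by mean signal. The other tested glia genes lacked this order. By mean signal Slc1a3, Glul and Rlbp1 peaked in P-RPC, while S100b, Aldoc and Gja1 were lowest in rESC-RPC2. With P-RPC as the reference, rESC-RPC2 had 2 glia genes called higher and 4 lower, and rESC-RPC1 had 1 called lower. The part of glial or mesenchymal cells in the results was not tested. Although P-RPC is labelled as neural retina, pigment epithelium markers summed to 388 to 504 in rESC-RPC2, 1968 to 6282 in rESC-RPC1 and 11873 to 13885 in P-RPC (7 of 8 detected). Red blood cell markers summed to 9 to 19 in rESC-RPC2, 24 to 51 in rESC-RPC1 and 13979 to 15135 in P-RPC. Endothelial markers summed to 764 to 917 in rESC-RPC2, 990 to 1707 in rESC-RPC1 and 7148 to 7538 in P-RPC. Kdr alone had a mean of 6480 in P-RPC. Endothelial markers had 1, 2 and 2 of 12 and pluripotency markers 1, 2 and 0 of 3 detected in rESC-RPC2, rESC-RPC1 and P-RPC. These 3 of 8 listed pluripotency genes were Klf4, detected in both rESC-RPCs, Esrrb, detected in rESC-RPC1, and Lin28a. Pou5f1 and Nanog had no probe set of their own name alone and were not examined. Lymphocyte and dendritic cell markers had 10 of 11 genes under the threshold on every array of all groups. The P-RPC replicate 1 stood apart, with a summed signal of 156800 for 17 lens genes against 2663 and 7139 in P-RPC replicates 2 and 3, and results are also given without it where that changed them.

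Among the 7 genes tested, 2 were called higher and 2 lower in rESC-RPC2 than P-RPC, where 10.7% of all 9956 genes tested were called higher and 13% lower. In rESC-RPC1 against P-RPC 5 were higher and 0 lower, with 12% and 9.56% of all genes. In rESC-RPC2 against rESC-RPC1 the counts were 0 higher and 6 lower, with 5.02% and 9.24% of all genes. One of the genes lower in rESC-RPC2 than P-RPC, Psmb9, was under the detection threshold in both groups. The median log2 fold changes of the 7 genes were 0.37, 1.74 and -2.47 in these comparisons, beside -0.02, -0.01 and -0.03 over all genes. Outside rESC-RPC1, 5 genes reached the threshold as well. Among them the counts were 2 higher and 1 lower, 3 higher and 0 lower, and 0 higher and 4 lower. Of these, Irf1 and Tap2 reached it on 2 arrays of P-RPC and 0 of rESC-RPC2, so they needed rESC-RPC1 arrays to pass. Their part in these counts is a description as well. B2m, Ifitm3, Irf1, Tap1 and Psmb9 were all highest in rESC-RPC1, Tap2 was lowest in rESC-RPC2, and Psmb10 was called in no comparison.

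**Figure D1:**
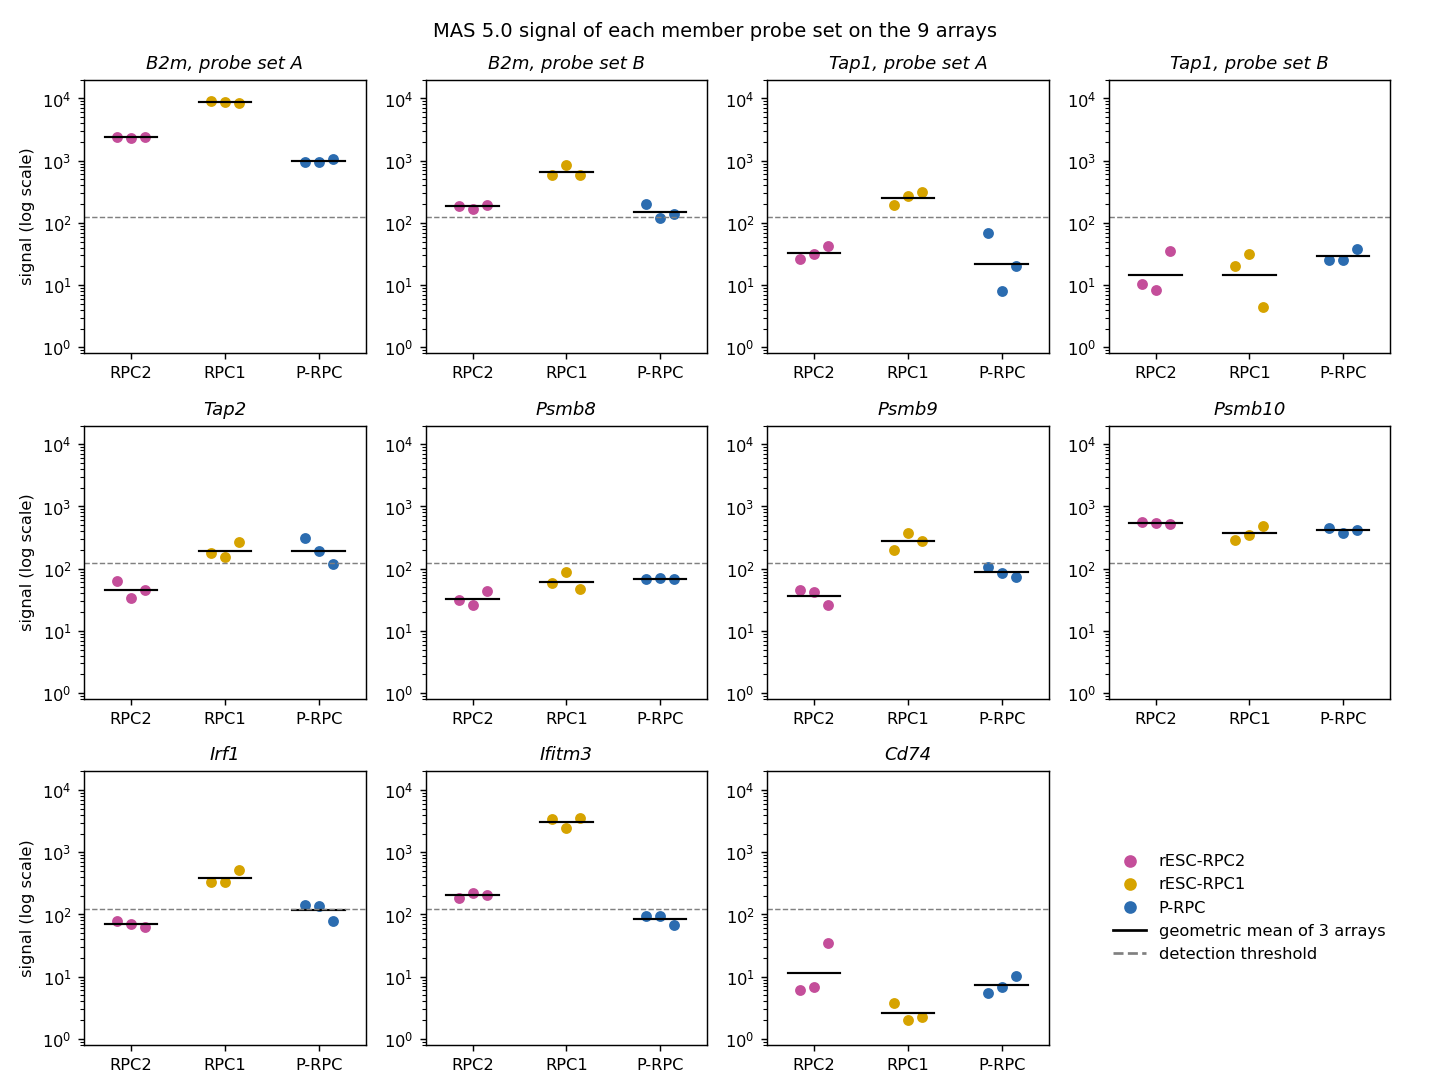
MAS 5.0 signal (log scale) of the 11 probe sets of the 9 genes on each array of rESC-RPC2 (RPC2), rESC-RPC1 (RPC1) and P-RPC, with the geometric mean of 3 arrays as a bar and the detection threshold of 123 dashed. B2m, Ifitm3, Irf1, Psmb9 and the probe set A of Tap1 are highest in rESC-RPC1, and Cd74, Psmb8 and the probe set B of Tap1 stay under the threshold on every array.

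Of the light chain of class I, the B2m probe set 1367595_s_at had signals of 2439, 2280 and 2378 in rESC-RPC2, 8994, 8708 and 8445 in rESC-RPC1, and 955, 954 and 1081 in P-RPC. The groups did not overlap, with rESC-RPC1 highest and P-RPC lowest. B2m was 2.38-fold higher in rESC-RPC2 than P-RPC (log2 fold change 1.25 ± 0.08 SE, limma adjusted p = 3.54e-07). It was 8.76-fold higher in rESC-RPC1 than P-RPC (3.13 ± 0.08, adjusted p = 1.57e-09) and 3.68-fold lower in rESC-RPC2 than in rESC-RPC1 (-1.88 ± 0.08, adjusted p = 2.51e-07).

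The other probe set of B2m, 1371440_at, read 186, 170 and 196 in rESC-RPC2, 584, 858 and 585 in rESC-RPC1, and 201, 118 and 139 in P-RPC. Here rESC-RPC1 was again above both other groups, while rESC-RPC2 and P-RPC overlapped. The rise over P-RPC in rESC-RPC1 was 4.47-fold (2.16 ± 0.22, adjusted p = 1.25e-05) and rESC-RPC2 was 3.61-fold under rESC-RPC1 (-1.85 ± 0.22, adjusted p = 7.13e-05). Between rESC-RPC2 and P-RPC the probe sets of B2m disagreed, since 1371440_at gave 0.31 ± 0.22 and no call (adjusted p = 0.238). Which of them is nearer to the RNA was not tested.

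The transporter gene Tap1 had signals of 25.9, 32.1 and 41.9 in rESC-RPC2, 192, 275 and 312 in rESC-RPC1, and 67.7, 7.91 and 20.3 in P-RPC on 1388149_at. All rESC-RPC1 arrays lay above the threshold and all others under it. Folds are therefore lower bounds, the rESC-RPC1 mean over the threshold, and Tap1 was raised at least 2.08-fold in rESC-RPC1 over P-RPC (fitted log2 fold change 3.52 ± 0.64, adjusted p = 0.000846). It was likewise reduced at least 2.08-fold in rESC-RPC2 relative to rESC-RPC1 (-2.96 ± 0.64, adjusted p = 0.00355). Between rESC-RPC2 and P-RPC the fitted value was 0.56 ± 0.64 (adjusted p = 0.47), it was 1.37 with a call without P-RPC replicate 1 (adjusted p = 0.0354) and -0.18 without P-RPC replicate 2 (adjusted p = 0.775), and no fold can be given with both groups under the threshold. The second probe set of Tap1, 1375379_at, read 4.48 to 38.6 over all 9 arrays.

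Tap2, the partner of Tap1 in the transporter, read 62.9, 33.6 and 44.6 in rESC-RPC2, 178, 155 and 266 in rESC-RPC1, and 311, 190 and 117 in P-RPC. All rESC-RPC2 arrays were under those of both other groups, and rESC-RPC1 and P-RPC overlapped. Tap2 was thus reduced at least 1.56-fold in rESC-RPC2 relative to P-RPC (fitted -2.07 ± 0.37, adjusted p = 0.000682) and at least 1.58-fold lower than in rESC-RPC1 (fitted -2.09 ± 0.37, adjusted p = 0.00107). With values under the threshold raised to it, neither was called (-0.66 in both, adjusted p = 0.0853 and 0.104). In rESC-RPC1 against P-RPC the difference was 0.03 ± 0.37 (adjusted p = 0.957), with -0.20 without rESC-RPC1 replicate 3 and -0.33 without P-RPC replicate 3, and none of these was called. Tap2 was detected on all arrays of rESC-RPC1 and on 2 of 3 arrays of P-RPC.

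Of the inducible proteasome subunits Psmb9 and Psmb10 passed the filter and Psmb8 did not. Psmb9 read 46.0, 42.1 and 25.9 in rESC-RPC2, 199, 373 and 278 in rESC-RPC1, and 108, 86.2 and 74.3 in P-RPC. As for Tap1, its neighbour, the threshold was reached on the rESC-RPC1 arrays alone, although the 3 groups did not overlap. Psmb9 was raised at least 2.24-fold in rESC-RPC1 over P-RPC (fitted 1.63 ± 0.31, adjusted p = 0.0011) and reduced at least 2.24-fold in rESC-RPC2 relative to rESC-RPC1 (fitted -2.90 ± 0.31, adjusted p = 4.37e-05). Between rESC-RPC2 and P-RPC the fit called it lower (-1.26 ± 0.31, adjusted p = 0.00491), but all 6 of these signals were under the threshold, and with values raised to the threshold the difference was 0.

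Psmb10 was detected throughout. Its signals were 566, 539.5 and 513 in rESC-RPC2, 289, 354 and 489.9 in rESC-RPC1, and 448, 381 and 425 in P-RPC. The rESC-RPC2 arrays lay above all others, and those of rESC-RPC1 and P-RPC overlapped. No call was made, with 0.37 ± 0.17 in rESC-RPC2 over P-RPC (adjusted p = 0.0857), -0.18 ± 0.17 in rESC-RPC1 over P-RPC (adjusted p = 0.404), and 0.55 ± 0.17 in rESC-RPC2 against rESC-RPC1 (adjusted p = 0.0247, 1.46-fold). Psmb8 read 31.0, 26.2 and 44.3 in rESC-RPC2, 58.4, 88.0 and 46.7 in rESC-RPC1, and 67.2, 70.7 and 67.2 in P-RPC, under the threshold on all 9 arrays, and it was not tested. Psmb10 and Psmb8 hold an ISRE core within their windows and Psmb9 does not. The core shown for Tap1, 120 to 112 bases before its start, lies between the starts of Tap1 and Psmb9, beyond the window of Psmb9. A link of these letters to the signals was not tested.

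**Figure D2:**
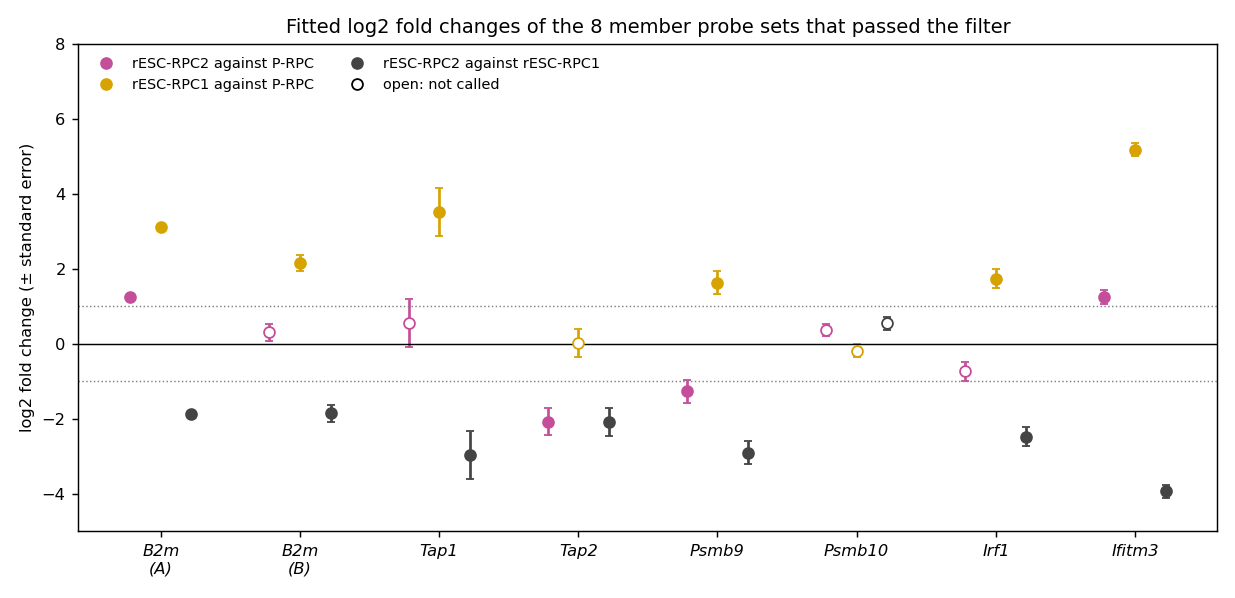
Log2 fold changes from the limma fit with their standard errors for the 8 probe sets that passed the filter, from left to right in each set rESC-RPC2 against P-RPC, rESC-RPC1 against P-RPC and rESC-RPC2 against rESC-RPC1. Filled points were called at an adjusted p under 0.05 and beyond 2-fold (dotted lines), and Psmb10 is the only gene with open points in all 3 comparisons.

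Irf1 read 77.5, 70.5 and 63.1 in rESC-RPC2, 333, 338 and 522 in rESC-RPC1, and 143, 139 and 79.9 in P-RPC. The rESC-RPC2 arrays were all under the threshold and under every other array, and the rESC-RPC1 arrays were all above those of P-RPC. Irf1 was 3.33-fold higher in rESC-RPC1 than P-RPC (1.74 ± 0.26, adjusted p = 0.000252) and reduced at least 3.17-fold in rESC-RPC2 relative to rESC-RPC1 (fitted -2.47 ± 0.26, adjusted p = 4.28e-05). The difference of rESC-RPC2 from P-RPC, -0.73 ± 0.26 (adjusted p = 0.0326), was under 2-fold and was not called, and without P-RPC replicate 3, the lowest of its group, it was -1.01 and called (adjusted p = 0.00562).

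The signals of Ifitm3 were 183, 223 and 205 in rESC-RPC2, 3380, 2444 and 3571 in rESC-RPC1, and 95.9, 96.0 and 67.5 in P-RPC. No groups overlapped, and P-RPC was under the threshold on all 3 arrays. Ifitm3 was raised at least 25.2-fold in rESC-RPC1 over P-RPC (fitted 5.18 ± 0.18, adjusted p = 1.17e-08) and 15.2-fold lower in rESC-RPC2 than in rESC-RPC1 (-3.93 ± 0.18, adjusted p = 6.61e-07). It was raised at least 1.66-fold in rESC-RPC2 over P-RPC (fitted 1.25 ± 0.18, adjusted p = 0.000182), which fell under 2-fold with values raised to the threshold (0.73).

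Related Ifitm genes, named after their values were seen, are close in sequence, and whether their probe sets also take up RNA of Ifitm3 was not tested. Ifitm2 read 180, 173 and 159 in rESC-RPC2, 1421, 817 and 1489 in rESC-RPC1, and 301, 349 and 459 in P-RPC. It was higher in rESC-RPC1 than P-RPC (1.72 ± 0.23, adjusted p = 9.16e-05), as Ifitm3 was, yet lower in rESC-RPC2 than P-RPC (-1.10 ± 0.23, adjusted p = 0.0017). Ifitm1 was detected in rESC-RPC1 alone, at 490, 288 and 473, while Ifitm10 was highest in rESC-RPC2 at 199, 341 and 388, against 191, 153 and 152 in rESC-RPC1 and 79.2, 67.6 and 90.4 in P-RPC. The rESC-RPC1 replicate 2 was the lowest of its group for Ifitm1, Ifitm2 and Ifitm3 and also for the summed mesenchymal and smooth muscle markers, at 21016 against 35123 and 51646 in replicates 1 and 3. The same replicate 2 was the highest of its group for the summed astrocyte and Muller glia markers, at 66633 against 55140 and 47832 in replicates 1 and 3. In rESC-RPC2, replicate 2 was lowest for the mesenchymal sum (10153 against 17499 and 13257) and the glia sum (32432 against 36139 and 32800). Yet it was the highest of its group for Ifitm3, while Ifitm2 was highest in replicate 1 and lowest in replicate 3. The part of mesenchymal or glial cells in the Ifitm signals was not tested.

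Cd74 read 6.10, 6.88 and 34.4 in rESC-RPC2, 3.76, 2.04 and 2.21 in rESC-RPC1, and 5.47, 6.84 and 10.1 in P-RPC. No group was detected, the highest single array being a rESC-RPC2 one, and no fold is given. Cd74 stayed under the threshold on the P-RPC arrays on which microglia markers such as Aif1 (257, 246 and 297) and P2ry12 (376, 348 and 349.5) were detected. The class II transactivator gene Ciita read 27.6 to 74.0 over its 2 probe sets and all 9 arrays, under the threshold like Cd74.

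The other genes of the class I pathway were counted by list. Beside the counts of this and every later list stand the shares of all 9956 genes tested that were called higher and lower. These were 10.7% and 13% in rESC-RPC2 against P-RPC, 12% and 9.56% in rESC-RPC1 against P-RPC, and 5.02% and 9.24% in rESC-RPC2 against rESC-RPC1. Here and in the other lists a gene counts as on the array if a probe set carries its name alone. Of 41 class I genes 15 were on the array in this sense and 5 passed the filter, since most of their probe sets were dim. Listed genes without such a probe set, RT1-A1 and RT1-A2 among them, were not examined, and probe sets that name several genes were left out. The RT1 genes are a family of close copies that vary between strains, so their probe sets may read several of them. Against P-RPC, 0 were higher and 1 lower in rESC-RPC2 (median -0.69), and 2 were higher and 1 lower in rESC-RPC1 (median 0.46). In rESC-RPC2 against rESC-RPC1 the counts were 0 higher and 4 lower (median -1.87). RT1-M3-1 passed through rESC-RPC1 alone. Among the other 4 the counts were 0 higher and 1 lower, 1 higher and 1 lower, and 0 higher and 3 lower. Of these, Fcgrt and RT1-CE16 reached the threshold on 1 array outside rESC-RPC1, so they too needed rESC-RPC1 arrays to pass. Without rESC-RPC2 replicate 2 or 3, 2 genes in place of 1 were lower in rESC-RPC2 than P-RPC.

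The heavy chain RT1-M3-1, a class I molecule outside the classical set, read 61.1, 117 and 74.3 in rESC-RPC2, 344, 298 and 282 in rESC-RPC1, and 41.3, 73.2 and 86.9 in P-RPC. It passed the filter through rESC-RPC1 alone and is given as a description, at least 2.51-fold higher there than P-RPC (fitted 2.26 ± 0.32, adjusted p = 0.000144) and reduced at least 2.51-fold in rESC-RPC2 relative to rESC-RPC1. Relative to P-RPC, RT1-S3 ran the other way, with 38.0, 20.8 and 19.2 in rESC-RPC2, 101, 126 and 57.6 in rESC-RPC1, and 281, 243.5 and 304 in P-RPC. It was called lower in rESC-RPC2 than P-RPC (at least 2.24-fold, adjusted p = 1.32e-05) and in rESC-RPC1 than P-RPC (fitted -1.61 ± 0.35, adjusted p = 0.0028), where 2 of 3 rESC-RPC1 arrays were under the threshold. These are values of 1388212_a_at, and the 2 other tested probe sets of RT1-S3 were called lower in rESC-RPC2 than P-RPC but not in rESC-RPC1 (adjusted p = 0.261 on 1371123_x_at and 0.0941 on 1388164_at). Fcgrt, which encodes the heavy chain of the neonatal Fc receptor and also pairs with B2m, was higher in rESC-RPC1 than P-RPC (1.16 ± 0.30, adjusted p = 0.00769) and reduced at least 2.24-fold in rESC-RPC2 relative to rESC-RPC1. RT1-CE12 was detected on all 9 arrays and called in no comparison, at 328, 392 and 384 in rESC-RPC2, 417, 351 and 466 in rESC-RPC1, and 538, 464 and 442 in P-RPC.

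In the peptide loading list 6 of 8 genes on the array passed. In rESC-RPC2 against P-RPC 2 were higher and 0 lower, in rESC-RPC1 against P-RPC 2 were higher and 0 lower, and in rESC-RPC2 against rESC-RPC1 the counts were 0 higher and 2 lower, with medians of 0.42, 0.92 and -0.32. Erap1, which trims peptides for class I in the endoplasmic reticulum, read 714, 559.6 and 611 in rESC-RPC2, 1729, 1354 and 2168 in rESC-RPC1, and 549, 545 and 704 in P-RPC. It was higher in rESC-RPC1 than P-RPC (1.53 ± 0.17, adjusted p = 3.3e-05) and lower in rESC-RPC2 than in rESC-RPC1 (-1.46 ± 0.17, adjusted p = 8.61e-05). Tapbp, which encodes tapasin, the bridge between the transporter and class I, was reduced at least 1.66-fold in rESC-RPC2 relative to rESC-RPC1 (fitted -1.17 ± 0.19, adjusted p = 0.000631). Tapbp was detected on 2 arrays of P-RPC and 0 of rESC-RPC2, so it needed rESC-RPC1 arrays to pass the filter. Calr and Hspa5, general chaperones of the endoplasmic reticulum, were higher in rESC-RPC2 than P-RPC (1.12 ± 0.24 and 1.00 ± 0.13), both close to the 2-fold limit, and this count was 0 without rESC-RPC2 replicate 1 and 1 without any single P-RPC array. Without rESC-RPC1 replicate 2, the count higher in rESC-RPC1 than P-RPC was 4. Nlrc5, the transactivator of class I genes, read 3.11 to 45.5 over the 9 arrays and was not tested.

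The other proteasome genes were counted in the same way, and Psmb9, which passed the filter through rESC-RPC1 alone, is no measure for them. The 2 constitutive catalytic subunits on the array, Psmb5 and Psmb7, and all 11 other core subunits from Psma1 to Psma7 and from Psmb1 to Psmb4 were detected on all arrays and called in no comparison. Over the 11 core subunits the count of calls was 0 in limma in all 3 comparisons, and the medians were -0.05, -0.12 and 0.14. At an unadjusted p under 0.05 there were 7, 6 and 5 of the 11, beside 6646, 6373 and 5479 of all 9956 genes tested. Psme2, which encodes a subunit of the activator that interferon gamma induces, read 1914, 1904 and 1680 in rESC-RPC2, 3207, 3345 and 3174 in rESC-RPC1, and 1480, 1416 and 1483 in P-RPC. It was 1.15 ± 0.08 higher in rESC-RPC1 than P-RPC (adjusted p = 8.65e-07) and, at -0.83 ± 0.08 in rESC-RPC2 against rESC-RPC1, under the 2-fold limit there. Psme1, its partner, was also highest in rESC-RPC1, at 3762, 3417 and 3507, against 1742 to 2071 in rESC-RPC2 and 2133 to 2245 in P-RPC, within 2-fold. Psme4, another activator of the proteasome, read 918 to 1172 in rESC-RPC2, 1235 to 1714 in rESC-RPC1 and 1931 to 1989 in P-RPC and was not called, though without rESC-RPC2 replicate 1 the constitutive list held 1 lower gene in rESC-RPC2 against P-RPC.

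**Figure D3:**
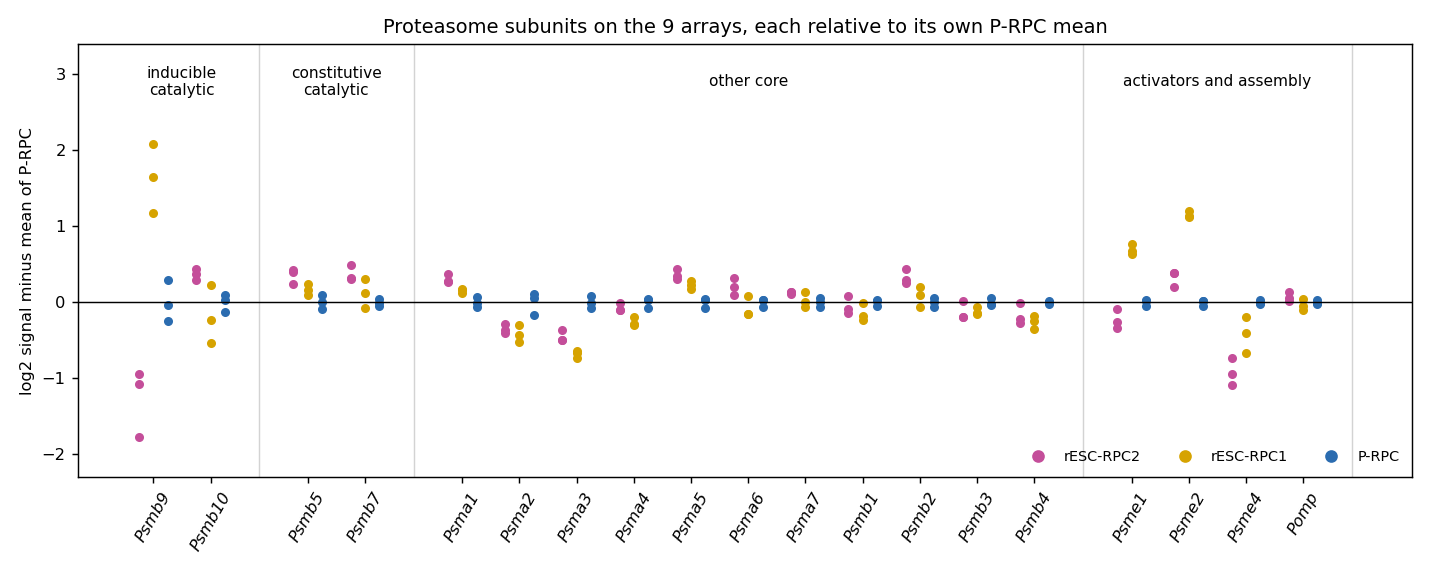
Log2 signal of each proteasome subunit that passed the filter minus its own mean over P-RPC, 1 point per array, for rESC-RPC2, rESC-RPC1 and P-RPC from left to right. Psmb9, which reached the threshold in rESC-RPC1 alone and so had to differ, spreads most between the groups. Psme1 and Psme2 are raised in rESC-RPC1, and the 11 other core subunits stay within 1 on the log2 scale.

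Of the class II pathway 17 of 21 genes were on the array and 13 passed. In rESC-RPC2 against P-RPC 1 was higher and 4 lower, in rESC-RPC1 against P-RPC 1 was higher and 2 lower, and in rESC-RPC2 against rESC-RPC1 the counts were 0 higher and 5 lower (3 without rESC-RPC1 replicate 3), with medians of -0.27, 0.39 and -0.76. Ctss counts among these 5 with both groups under the threshold. Ctss and RT1-DMb passed the filter through P-RPC alone and are both genes counted lower in rESC-RPC1 than P-RPC. Among the other 11 the counts were 1 higher and 2 lower, 1 higher and 0 lower, and 0 higher and 4 lower. Of these, Rfxank reached the threshold on 2 arrays each of rESC-RPC1 and P-RPC and 0 of rESC-RPC2, so it needed both groups to pass. The gene higher in both comparisons with P-RPC was RT1-Db1, a class II beta chain. On 1370383_s_at it read 334, 217 and 235 in rESC-RPC2, 268, 139 and 449.9 in rESC-RPC1, and 23.1, 23.98 and 8.00 in P-RPC, which was at least 2.10-fold and 2.09-fold higher in rESC-RPC2 and rESC-RPC1. Its other probe set, 1370382_at, read 10.48 to 52.1 on all 9 arrays, so that the difference stood on 1 of 2 probe sets. RT1-Da, the alpha chain, and RT1-Bb were under the threshold on all arrays, and RT1-Ba reached it on 2. The part of the strain in the RT1-Db1 signal was not tested.

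The class II genes lower than P-RPC included Ctss, the protease that cuts the invariant chain, at 31.5, 25.1 and 26.5 in rESC-RPC2, 81.7, 83.4 and 90.0 in rESC-RPC1, and 743, 689 and 766 in P-RPC. Relative to P-RPC it was reduced at least 5.97-fold in rESC-RPC2 and in rESC-RPC1 (adjusted p = 1.8e-08 and 2.87e-07). Ctss and RT1-DMb reached the threshold in P-RPC alone, so that they had to be lower elsewhere and are given as descriptions. RT1-DMb, a subunit of the peptide editor of class II, was at least 1.74-fold lower in both (adjusted p = 0.000715 in rESC-RPC2 and 0.00114 in rESC-RPC1). Microglia markers moved with these genes, with 0 of 20 detected in rESC-RPC2, 1 of 20 in rESC-RPC1 and 9 of 20 in P-RPC, and their part in the result was not tested. Lgmn, a protease of the same compartment, read 515, 489.5 and 496.5 in rESC-RPC2, 2190, 1827 and 1825 in rESC-RPC1, and 1596, 1499 and 1347 in P-RPC, and was lower in rESC-RPC2 than P-RPC (-1.56 ± 0.10, adjusted p = 6.1e-07) and than in rESC-RPC1 (-1.96 ± 0.10, adjusted p = 1.41e-06).

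Interferon receptors and signaling genes act upstream of the 9 genes. Of 28 genes on the array 17 passed, and in rESC-RPC2 against P-RPC 2 were higher and 2 lower, in rESC-RPC1 against P-RPC 4 were higher and 0 lower, and in rESC-RPC2 against rESC-RPC1 the counts were 0 higher and 3 lower (5 without rESC-RPC2 replicate 2 or rESC-RPC1 replicate 3), with medians of 0.09, 0.35 and -0.78. At an unadjusted p under 0.05 there were 12, 13 and 14 of the 17, beside 6646, 6373 and 5479 of all 9956 genes tested. Ifnar2, a chain of the receptor for type I interferons, read 460.1, 430.3 and 439.6 in rESC-RPC2, 914, 859 and 658 in rESC-RPC1, and 119, 134 and 131 in P-RPC. On this probe set, 1380445_at, it was higher than P-RPC in both (1.79 ± 0.14 in rESC-RPC2, adjusted p = 1.86e-06, and 2.65 ± 0.14 in rESC-RPC1, adjusted p = 1.34e-07). Its other probe set, 1390154_at, gave 0.59 ± 0.16 without a call in rESC-RPC2 and 1.04 ± 0.16 with a call in rESC-RPC1 (adjusted p = 0.00834 and 0.000262). Stat3, a transcription factor of many cytokines, read 853, 712 and 599 in rESC-RPC2, 1786, 1524 and 1749 in rESC-RPC1, and 222, 171 and 143 in P-RPC. Il10rb and Irf9 were higher in rESC-RPC1 than P-RPC (1.92 ± 0.18 and 1.01 ± 0.16), whereas Stat2 was lower in rESC-RPC2 than P-RPC on 1 of 2 probe sets (-1.38 ± 0.14 on 1373670_at, and -0.95 ± 0.19 without a call on 1389571_at). The receptor genes Ifnar1, Ifngr1 and Ifngr2 and the kinase genes Jak1 and Jak2 were detected on all arrays and not called. The probe sets of the interferons themselves were dim, with Ifng at 1.00 to 7.49 and Ifnb1 at 1.40 to 22.3 over the 9 arrays.

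Of 62 interferon-induced genes on the array, besides Irf1 and Ifitm3, 24 passed the filter. In rESC-RPC2 against P-RPC 6 were higher and 2 lower (median 0.05), in rESC-RPC1 against P-RPC 17 were higher and 0 lower (median 1.53), and in rESC-RPC2 against rESC-RPC1 the counts were 0 higher and 16 lower (median -1.46). In the first comparison Ifi27l2b (higher) and Ifi35 (lower) were under the threshold in both groups, as Samhd1 (higher) was in the second. Of the 24 genes, 10 reached the threshold in rESC-RPC1 alone and Samhd1 in rESC-RPC2 alone, and these had to differ. Among the other 13 the counts were 4 higher and 1 lower, 6 higher and 0 lower, and 0 higher and 6 lower. Of these, Mx2 and Icam1 reached the threshold on 2 arrays of rESC-RPC2 and 0 of P-RPC, so they needed rESC-RPC1 arrays to pass. Casp4 and Ifitm10 also reached it on 0 arrays of P-RPC, so the excess of all of these over P-RPC is a description. Of all genes tested, 10.7% and 13%, 12% and 9.56%, and 5.02% and 9.24% were called higher and lower in these comparisons. With all values under the threshold raised to it, 8 of 24 were higher in rESC-RPC1 than P-RPC and 9 of 24 lower in rESC-RPC2 than in rESC-RPC1. Without P-RPC replicate 3 the lower count in rESC-RPC2 against P-RPC was 1, and without rESC-RPC2 replicate 1 the higher count against rESC-RPC1 was 1.

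Icam1, an adhesion molecule for leukocytes, read 163, 141 and 109 in rESC-RPC2, 324, 153 and 368 in rESC-RPC1, and 9.16, 8.48 and 7.19 in P-RPC. It was at least 1.11-fold higher in rESC-RPC2 and raised at least 2.15-fold in rESC-RPC1 over P-RPC (adjusted p = 5.88e-06 and 1.43e-06). Mx2, an interferon-induced GTPase, read 109, 169 and 135 in rESC-RPC2, 500.0, 573 and 287 in rESC-RPC1, and 16.2, 15.3 and 14.0 in P-RPC. Its groups did not overlap and had the order seen for Ifitm3 and for B2m on 1367595_s_at. Casp4, an inflammatory caspase, was at least 2.85-fold higher in rESC-RPC2 and 6.26-fold higher in rESC-RPC1 than P-RPC. The GTPase genes Igtp and Irgm2 and Ifi35 were detected in rESC-RPC1 alone, with Irgm2 at 39.7, 46.2 and 49.8 in rESC-RPC2, 326, 444.5 and 333 in rESC-RPC1, and 64.8, 88.8 and 84.9 in P-RPC.

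Other well-known interferon-induced genes, named after their values were seen, stayed under the threshold on every array, with Ifit1 at 20.7 to 73.0, Ifit3 at 1.86 to 32.6, Rsad2 at 32.8 to 66.5 and Mx1 at 15.1 to 53.9. Isg15 also stayed under it, but read 7.67, 11.3 and 8.88 in rESC-RPC2, 105, 78.5 and 95.0 in rESC-RPC1, and 17.7, 62.3 and 8.52 in P-RPC. So the interferon-induced genes detected in rESC-RPC1 were a share of the list, and these 5 were not among them.

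**Figure D4:**
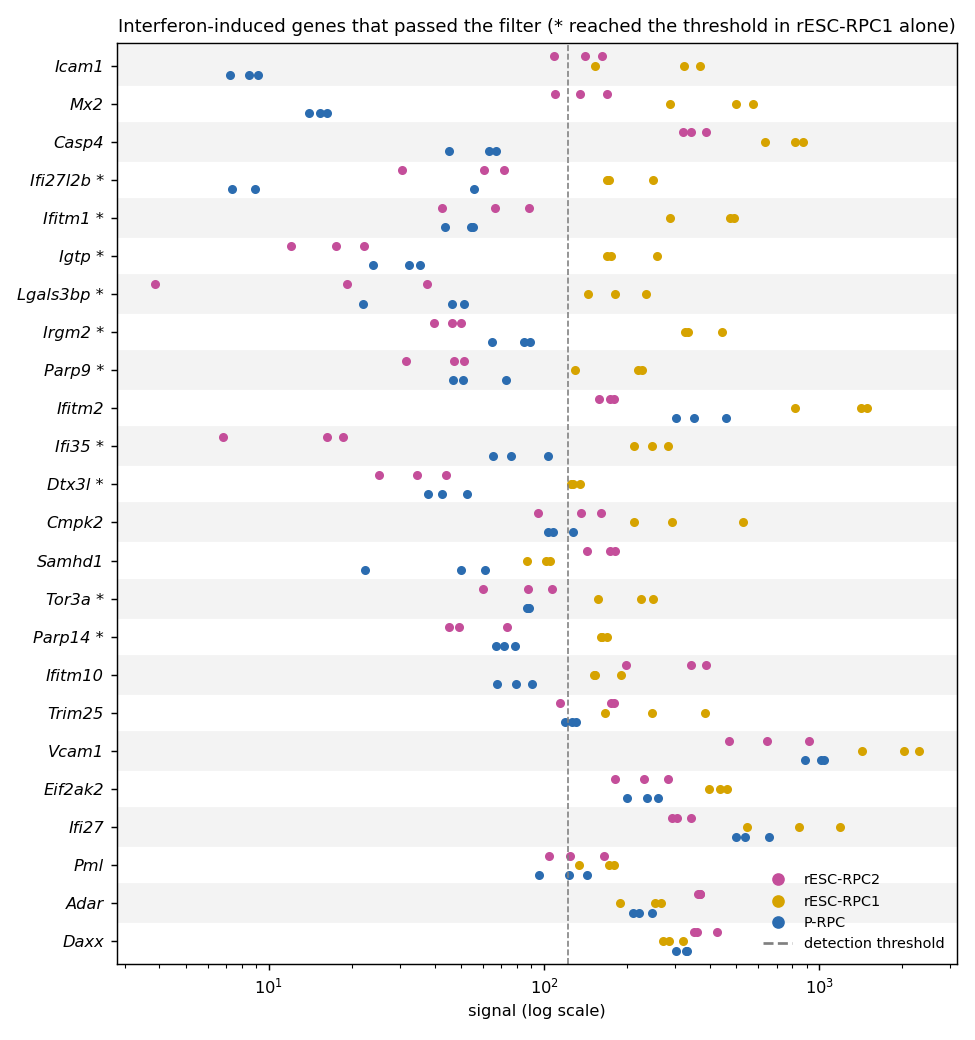
Signal (log scale) of the 24 interferon-induced genes that passed the filter, 1 point per array, with rESC-RPC2, rESC-RPC1 and P-RPC from top to bottom in each row and the rows ordered by the log2 fold change of rESC-RPC1 against P-RPC. The 10 genes with an asterisk reached the threshold (dashed) in rESC-RPC1 alone, and Icam1, Mx2 and Casp4 at the top are lowest in P-RPC.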

How the data were processed

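RNA of 9 samples was measured on 1 Affymetrix Rat Genome 230 2.0 array each, 3 per group, and groups were taken from the sample titles. The deposited values are intensities, which the authors made by removing the background and normalizing with MAS 5.0 in GeneSpring 11.0 (the version of MAS5 is not given in the sources used here). They are 1 linear signal per probe set with a mean of 500.2 on every array after trimming 2% from each end. No detection calls, scan dates or batches are given, so the threshold stands in for a call and MAS 5.0 leaves dim signals noisy.

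The log2 values were taken after raising signals under 1 to 1. Of 31099 probe sets 57 controls were left out, 20826 of the rest had 1 gene symbol, 436 had several and 9780 had none. The threshold was the median of all values (123, log2 6.94), and 3 or more arrays had to reach it for a test (17048 probe sets, 9956 genes). The tools were R 4.3.3 and limma 3.58.1 (lmFit, eBayes with a trend, 1 mean per group over 9 arrays, Benjamini-Hochberg over all tested probe sets), and Python 3.11.15 for summaries. The number of arrays limits the precision. The labels call the arrays biological repeats and the methods speak of independent experiments, without saying which animals or cultures these used, so the p-values measure the spread between these samples. A list gene stands for its tested probe set of highest mean. Counts over genes that reached the threshold in 2 or more groups were added after the data were seen. The calculation was tested on simulated data. Arrays of the same replicate number mostly did not deviate together (r of deviations from -0.06 to 0.306, over 0.1 in 1 of 9 pairs). The 1 pair was replicate 2 of rESC-RPC1 and rESC-RPC2 (0.306). The labels do not say whether these shared a culture, and no block was used in the main fit.

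The 9 genes, the pathway and marker lists and the tests were chosen with earlier results of these data known. The text names the 9 genes, per list and comparison up to 4 called genes of largest change, the class I and II genes, Psmb5, Psmb7, Nlrc5, Ciita and markers, and others are said to be named after their values were seen. Lens genes were listed after the data were seen. Alternatives were quantile normalization, median centring, no filter or one of 6 arrays, floors at 16 and at the threshold, 1 probe set per gene, no trend, only the groups compared, the methods' t-test, the replicate block and leaving out each array. Promoter sequences are RefSeq (GRCr8), and all 11 probe sets matched RefSeq genes by identifier. The motif letters were shortened, and a kappaB motif dropped, after the matches to longer letters had been seen.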

Additional observations from a re-analysis of the deposited data

How the results depend on the processing

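Of 126 counts of the 9 genes under the alternatives, 121 stayed within 1.5 times the main count, and of 489 fold changes of single probe sets 480 kept direction and side of the threshold. When every value under the threshold was raised to it, 1 gene was called higher and 0 lower in rESC-RPC2 against P-RPC. With a filter of at least 6 arrays only 3 of the genes were tested, and 0 were lower in rESC-RPC2 than P-RPC, 2 higher in rESC-RPC1 than P-RPC and 2 lower in rESC-RPC2 than in rESC-RPC1, since fewer genes were tested. The raised values also ended the calls of Tap2 in rESC-RPC2 against P-RPC (-0.66) and rESC-RPC1 (-0.66), of Psmb9 (0) and of Ifitm3 (0.73) in rESC-RPC2 against P-RPC. Directions turned, without a call, for Tap1 in rESC-RPC2 against P-RPC without P-RPC replicate 2 (-0.18, against 1.37 without P-RPC replicate 1) and for Tap2 in rESC-RPC1 against P-RPC without rESC-RPC1 replicate 3 (-0.20) or P-RPC replicate 3 (-0.33), against 0.38 without P-RPC replicate 1, and the cause was not tested. Leaving out 1 array gave 2 to 3 genes higher and 2 to 3 lower in rESC-RPC2 against P-RPC, 5 higher in rESC-RPC1 against P-RPC and 6 lower in rESC-RPC2 against rESC-RPC1. With the replicate block the counts were 2 higher and 2 lower, 5 higher and 0 lower, and 0 higher and 6 lower, and it changed no call of the 9 genes. Of the counts of pathway lists 960 stayed within 1.5 times and 48 did not, and the main moves were under the 6-array filter and the raised values, with 4 of 11 and 8 of 24 interferon-induced genes higher in rESC-RPC1 than P-RPC. Signals under the threshold in some or all groups limit Tap1, Tap2, Psmb8, Psmb9, Irf1, Ifitm3 and Cd74.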

Other observations

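Genes of NF-kB signaling, a pathway that also acts on class I genes, were counted in the same way. Of 21 on the array 14 passed, and 3 were higher and 3 lower in rESC-RPC2 than P-RPC (5 lower without rESC-RPC2 replicate 1), 7 higher and 0 lower in rESC-RPC1 than P-RPC, and 0 higher and 6 lower in rESC-RPC2 than in rESC-RPC1 (4 to 7 lower when single arrays were left out). The medians were -0.16, 0.67 and -0.87. Of all genes tested, 10.7% and 13%, 12% and 9.56%, and 5.02% and 9.24% were called higher and lower in these comparisons. Il1r1 and Relb passed the filter through rESC-RPC1 alone. Among the other 12 the counts were 2 higher and 2 lower, 5 higher and 0 lower, and 0 higher and 4 lower. Of these, Myd88 reached the threshold on 1 array outside rESC-RPC1, so it needed rESC-RPC1 arrays to pass. Tnfrsf1a, a receptor of tumour necrosis factor, read 553, 399 and 383 in rESC-RPC2, 1061, 931 and 1236 in rESC-RPC1, and 129, 163 and 186 in P-RPC, with no overlap between groups (2.76 ± 0.18 in rESC-RPC1 against P-RPC, limma adjusted p = 7e-07). Il1r1, a receptor of interleukin 1, was detected in rESC-RPC1 alone, at 199, 319 and 168, and Relb, a subunit of NF-kB, likewise at 172, 162 and 152.

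Among all tested genes, those with log2 signals most like Irf1 over the 9 arrays were Eola2 (Pearson r = 0.977), Ost4 (0.977), Commd1 (0.976), Nr3c1 (0.975) and Foxo1 (0.972), and those most like B2m on 1367595_s_at were Cd81 (0.998), Cstb (0.997), Gys1 (0.995), Dag1 (0.995) and Swap70 (0.995). The arrays fall into 3 groups, and these values mostly describe the order of the groups. None of the other 8 genes was among them.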
